A study of Mus musculus with 2 samples.

Results

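The insulin-like growth factor (IGF) axis was described in the muscle stem cells of mice through 9 genes: the ligand gene Igf1, the receptor genes Igf1r and Igf2r, and the binding protein genes Igfbp2, Igfbp3, Igfbp4, Igfbp5, Igfbp6 and Igfbp7. They were taken by symbol from the 32285 features counted in each library, and all 9 were detected in at least 3 kept barcodes, as were 14443 features in all. A kept barcode had 500 or more detected genes, with no more than 10% of its unique molecular identifiers (UMIs, which count captured transcripts) from mitochondrial genes. Both libraries came from the tibialis anterior (TA) muscle of Pax7 CreERT2/+ ;Rosa26 mTmG/+ mice at 8 weeks of age. In these mice an inducible Cre recombinase under the control of Pax7, the transcription factor of satellite cells, switches a membrane reporter from red to green once induced, and both groups carry it. The QSC library held quiescent satellite cells sorted from uninjured muscle, and the ASC library held activated satellite cells sorted 1.5 days after cardiotoxin (CTX), a toxin that destroys fibres. The labels give TA as the tissue but also mention digestion of hind-limb muscles. Each group was 1 library, so library and condition cannot be told apart, no test was possible, and every interval below is a 95% interval that covers counting error only.

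Satellite cells rest beneath the basal lamina of the muscle fibre, enter the cell cycle after injury, and then either differentiate or return to rest. IGF-I is a secreted hormone and local growth factor that binds the tyrosine kinase IGF1R, which signals through insulin receptor substrates to PI3 kinase, AKT and the FOXO factors. IGF2R, the cation-independent mannose 6-phosphate receptor, carries lysosomal enzymes and removes IGF-II from the cell surface. The binding proteins are secreted carriers that hold IGFs outside the cell, prolong their life or keep them from the receptor, and are themselves cut by proteases.

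The libraries differed in depth and in the kinds of barcodes that they held. The QSC library kept 516 of 766 barcodes with 1162091 UMIs, and the ASC library kept 1468 of 1650 with 8895815 UMIs, and 2 kept barcode sequences occurred in both. At these totals 3 UMIs amounted to 2.58 CPM (UMIs per 1000000 UMIs) in QSC and 0.337 CPM in ASC. Barcodes with 5% or more of their UMIs from 10 contractile fibre genes, called contractile-high here, numbered 104 in QSC and 919 in ASC. The contractile-low muscle barcodes, those under this limit and outside clusters named as other cell types, numbered 368 and 434. This class is a range and not a cell type. Among muscle barcodes 0 in QSC and 15 in ASC lay within 1 percentage point under the limit, and 1 and 30 lay within 1 point over it. Pax7 checked the label of the class and stood at 214 CPM in the contractile-low muscle barcodes of QSC and at 29.5 CPM in those of ASC. The merged barcodes formed 13 clusters, from which all IGF genes had been left out as clustering features.

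Members counted for each library were protein-coding genes on the GRCm38 assembly, annotated by GENCODE M21. Igf1 lies at chr10:87858265-87937042, Igf1r at chr7:67952827-68233668 and Igf2r at chr17:12682406-12769664. Igfbp2 (chr1:72824503-72852474, plus strand) and Igfbp5 (chr1:72857932-72874884, minus strand) are neighbours with 5457 bases between them. Igfbp3 at chr11:7206086-7213923 has Igfbp1, which was at 0 UMIs in both libraries, 3539 bases away. Igfbp4 lies at chr11:99041244-99054392, Igfbp6 at chr15:102144362-102149511 and Igfbp7 at chr5:77349240-77408041. Genes on the opposite strand overlap 3 of the members: Igf1os overlaps Igf1, Airn overlaps Igf2r, and Polr2b and Gm34648 overlap Igfbp7. Igf1os and Gm34648 had 0 UMIs in both libraries, whereas Airn had 39 UMIs in QSC and 161 in ASC, and Polr2b had 20 and 139. The counts of Igf2r and Igfbp7 may thus be less certain than the others, but the effect of the overlaps was not tested.

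The promoter windows of Igfbp3, Igfbp5, Igf1 and Igfbp7 are shown because of their differences. Igfbp3 was higher in the ASC library and Igfbp5 was lower. By summed UMIs, Igf1 and Igfbp7 differed 27.6-fold and 22.8-fold between 2 ASC clusters described further on. Each window runs from 250 bases before to 50 bases after the RefSeq start site on GRCm38.p6, and is printed 5′ to 3′ on the strand of its gene. RefSeq windows were found for all 9 members. Capitals mark matches on either strand to CAGCTG and CACGTG (forms of the E-box that basic helix-loop-helix factors such as MYOD bind), to the TATA box TATAAA, to the GC box written GGGCGG, and to the AP-1 motif TGANTCA.
Igfbp3, chr11:7213874-7214173, minus strand: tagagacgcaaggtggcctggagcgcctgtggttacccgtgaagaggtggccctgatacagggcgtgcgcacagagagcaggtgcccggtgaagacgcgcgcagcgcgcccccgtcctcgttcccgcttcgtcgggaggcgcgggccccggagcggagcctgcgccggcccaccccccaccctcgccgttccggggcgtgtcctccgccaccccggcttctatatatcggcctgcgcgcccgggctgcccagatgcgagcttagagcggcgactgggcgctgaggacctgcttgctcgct
Igfbp5, chr1:72874816-72875115, minus strand: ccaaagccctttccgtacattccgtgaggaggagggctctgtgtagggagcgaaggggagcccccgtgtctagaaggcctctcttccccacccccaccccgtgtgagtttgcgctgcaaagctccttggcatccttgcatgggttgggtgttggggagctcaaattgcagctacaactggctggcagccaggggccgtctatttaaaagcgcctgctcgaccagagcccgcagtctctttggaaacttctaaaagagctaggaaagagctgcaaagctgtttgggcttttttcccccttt
Igf1, chr10:87860861-87861160, plus strand: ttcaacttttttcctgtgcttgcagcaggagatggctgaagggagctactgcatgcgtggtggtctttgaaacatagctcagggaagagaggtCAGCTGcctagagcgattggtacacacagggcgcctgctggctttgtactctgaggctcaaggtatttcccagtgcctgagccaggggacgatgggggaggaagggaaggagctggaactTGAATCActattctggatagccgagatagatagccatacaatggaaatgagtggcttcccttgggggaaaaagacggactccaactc
Igfbp7, chr5:77407996-77408295, minus strand: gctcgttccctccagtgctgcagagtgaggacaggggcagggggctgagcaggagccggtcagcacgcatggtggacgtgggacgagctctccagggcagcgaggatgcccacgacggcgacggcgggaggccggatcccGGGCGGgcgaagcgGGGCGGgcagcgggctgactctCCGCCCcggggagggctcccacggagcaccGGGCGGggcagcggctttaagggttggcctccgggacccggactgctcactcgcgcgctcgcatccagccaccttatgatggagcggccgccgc
The Igfbp7 window held 4 GC boxes, a motif found in 35.7% of 32851 promoter windows of this length, and the Igf1 window held CAGCTG (16.3% of all windows) and TGANTCA (7.81%). Neither the Igfbp3 nor the Igfbp5 window held any of the 5 motifs. Among the other members, Igfbp4 and Igfbp6 each held 1 TATAAA (13.6% of all windows), at positions -28 and -148 from the start site. Igf2r held 2 copies of CACGTG (7.15%) and 3 GC boxes, and Igf1r held 2 GC boxes. Igfbp2 had 2 windows, of which one held CACGTG and 3 GC boxes and the other TGANTCA. GC content was 73.3% in the Igfbp7 window, 71.7% in that of Igfbp3, 56.3% in that of Igfbp5 and 52.3% in that of Igf1, against a median of 52.7% over all windows. A match describes the letters only.

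To see how the axis differed between quiescent and activated cells, the UMIs of each member were summed over all kept barcodes. Of the 9 members, 7 were at least 2-fold lower in ASC and 2 were at least 2-fold higher. Among all 11189 genes with 20 or more UMIs, 23.0% were at least 2-fold lower and 16.0% at least 2-fold higher. The median gene among those with 20 or more UMIs in both libraries had a log2 ratio of -0.24, and edgeR's TMM scaling moved all ratios up by 0.31. The lower members, 7 of 9, were thus a larger share than among all genes tested, which describes these 2 libraries only. The members were chosen with earlier results of these data known, and the part of that choice in this share was not tested.

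Igf1, the ligand, was counted at 43.0 CPM in QSC (31.9 to 56.7, 50 UMIs) and 18.1 CPM in ASC (15.4 to 21.1, 161 UMIs). Its log2 ratio of ASC over QSC was -1.25 (-1.72 to -0.76), or -1.01 relative to the median gene, and -0.94 after TMM scaling, which puts it just inside 2-fold. Igf1r, the signalling receptor, stood at 53.4 CPM in QSC and 13.8 CPM in ASC, a log2 ratio of -1.95 (-2.40 to -1.48). The intervals of the 2 libraries did not overlap for either gene. Igf2r, the clearing receptor, stood at 37.0 CPM and 14.5 CPM, with a log2 ratio of -1.35 (-1.86 to -0.82).

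Igfbp5, which can either hold back or enhance IGF action, was counted at 411 CPM in QSC (375 to 450, 478 UMIs) and 53.2 CPM in ASC (48.5 to 58.2, 473 UMIs). This is a 7.74-fold lower level in ASC, a log2 ratio of -2.95 (-3.14 to -2.77). Igfbp6, a carrier that prefers IGF-II over IGF-I, stood at 225 CPM in QSC and 8.43 CPM in ASC, a 26.7-fold difference with a log2 ratio of -4.74 (-5.13 to -4.37). The fold was the widest among the members, but 228 of the 262 QSC UMIs of Igfbp6 came from 17 fibroblast-like barcodes. Igfbp4, mostly an inhibitor of IGF action, was lower in ASC by a log2 ratio of -2.15 (-2.48 to -1.81), from 103 to 23.3 CPM. Igfbp7, a related secreted protein that binds IGFs weakly, stood at 223 and 85.0 CPM, a log2 ratio of -1.39 (-1.60 to -1.18).

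Igfbp3 and Igfbp2 had higher values in the ASC library. Igfbp3, the main IGF carrier of the blood, stood at 7.74 CPM in QSC (3.54 to 14.7, 9 UMIs) and 26.9 CPM in ASC (23.6 to 30.5, 239 UMIs). Its log2 ratio was 1.79 (0.85 to 2.94). Igfbp2, a carrier found in many tissues, had 1 UMI in QSC and 23 in ASC, and its log2 ratio of 1.59 had an interval from -1.04 to 6.95, so no direction was detectable at this depth.

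**Figure D1:**
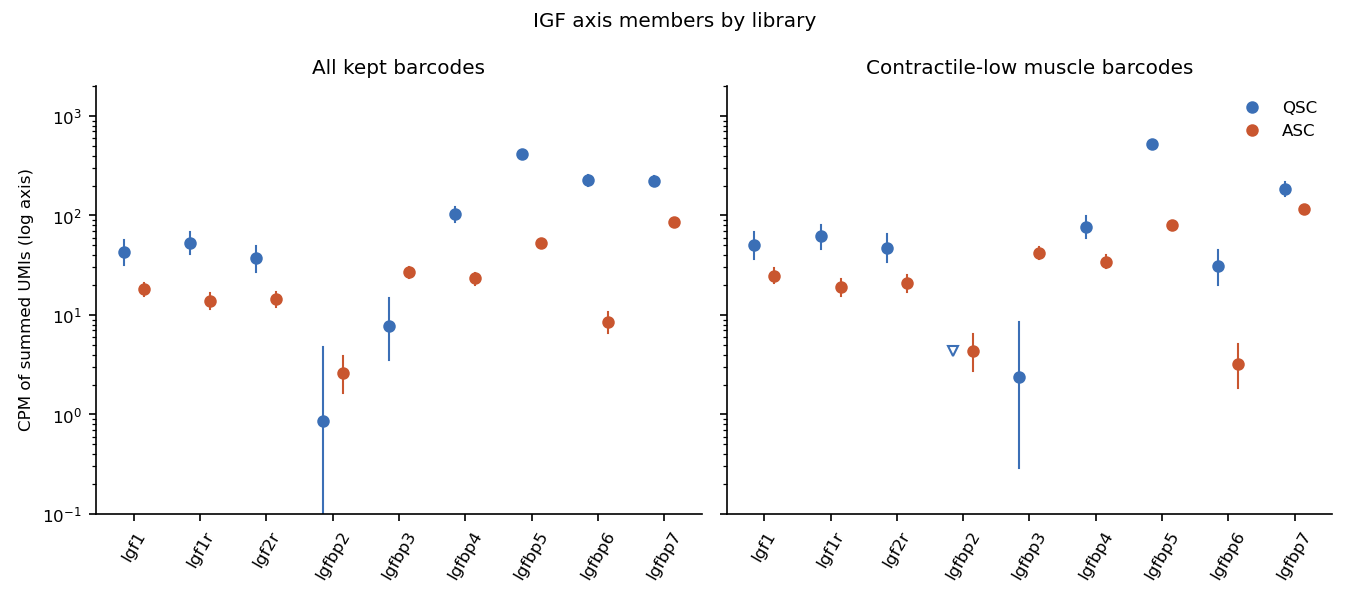
CPM of each member (log axis) in the QSC (blue) and ASC (orange) libraries, for all kept barcodes on the left and contractile-low muscle barcodes on the right. Points are levels of summed UMIs, lines are 95% Poisson intervals cut at the axis limit, and an open triangle is the upper bound of a level of 0. Igfbp5 stands at 411 against 53.2 CPM on the left and 523 against 79.4 CPM on the right, and Igfbp3 is the member with the clearest higher level in ASC.

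The study's methods filter at 1% mitochondrial UMIs, and that limit ended every call: 0 members were at least 2-fold lower and 0 were at least 2-fold higher. It kept 86 QSC barcodes, of which 85 were contractile-high, and these held 11 UMIs of all members together. With a limit of 5%, 6 members were lower and 1 was higher.

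The mix of barcodes was then held closer by looking within the contractile-low muscle barcodes. Here 6 of the 9 members were at least 2-fold lower in ASC by summed UMIs (background 22.4% of 9994 genes). Igfbp3 was higher (background 18.7%), and Igfbp7 and Igfbp2 were within 2-fold or could not be called. Summed UMIs weigh deep barcodes more. By the mean of per-barcode CPM, Igf1 stood at 51.0 in QSC and 44.6 in ASC, Igfbp4 at 80.4 and 59.6, and Igf2r at 46.7 and 23.8. Each of these was inside 2-fold. Igf1r (62.3 and 26.5), Igfbp5 (525 and 130) and Igfbp6 (29.6 and 3.61) stayed at least 2-fold lower, and Igfbp3 (2.21 and 25.7) higher. The QSC barcodes of this class lay mostly in cluster 2 (238 of 368) and cluster 4 (71), and the ASC barcodes mostly in cluster 1 (238 of 434), cluster 4 (102) and cluster 9 (46), so the ratios compare different clusters. Fibroblast markers also differed within this class. They summed to 4792 CPM in QSC (0 of 10 at 0) and 1068 CPM in ASC (1 of 10 at 0). Of these markers, Pdgfra and Dcn stood at 4.73 and 37.9 CPM in QSC and at 0 and 9.35 CPM in ASC. In QSC fibroblast-like barcodes they stood at 332 and 10787 CPM. Ogn, also a marker, was among the leading genes of cluster 2, and the rest are given as a sum only. The part of the fibroblast markers in the lower members was not tested. The median gene had a log2 ratio of -0.26 here.

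Igfbp5 remained the member with the largest number of QSC UMIs, at 523 CPM in QSC (475 to 574) and 79.4 CPM in ASC (72.1 to 87.4), a log2 ratio of -2.72 (-2.91 to -2.52). Igf1r was lower by a log2 ratio of -1.70 (-2.20 to -1.19), Igf2r by -1.18 (-1.71 to -0.62) and Igf1 by -1.03 (-1.54 to -0.50). The interval of each of the last pair reaches ratios inside 2-fold. Igfbp4 stood at 76.9 and 34.4 CPM, a log2 ratio of -1.16 (-1.58 to -0.73), which is 2.24-fold instead of the 4.44-fold over all kept barcodes. Igfbp7 stood at 186 and 116 CPM, a log2 ratio of -0.68 (-0.94 to -0.42), and was no longer 2-fold apart. The mean of per-barcode CPM for Igfbp7 ran the other way, at 188 in QSC and 220 in ASC. With each barcode thinned to 1200 UMIs, 21.6% of QSC and 13.1% of ASC barcodes held Igfbp7. Its direction in this class thus depended on the measure.

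Igfbp3 had 2 UMIs among the QSC barcodes of this class (2.37 CPM, 0.287 to 8.55) and 225 among those of ASC (42.1 CPM, 36.7 to 47.9). The log2 ratio was 4.15, with a wide interval of 2.28 to 7.21 that nonetheless lay above 2-fold. Igfbp6 had 26 UMIs in QSC (30.8 CPM, 20.1 to 45.1) and 17 in ASC (3.18 CPM), a log2 ratio of -3.28 (-4.25 to -2.34). Other QSC barcodes had Igfbp6 levels with overlapping intervals. These were 23.3 CPM (7.57 to 54.4) in contractile-high barcodes and 30.6 CPM (0.775 to 171, 1 UMI) in macrophage-like ones. Whether the muscle barcodes themselves express Igfbp6 was not tested. Igfbp2 had 0 UMIs in QSC and 23 in ASC, and the lower limit of its log2 ratio was -0.14, so no direction was detectable here either.

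In the contractile-high barcodes the members were scarce. Among 104 QSC barcodes of this class the 9 genes had 14 UMIs together, and no member passed 23.3 CPM in either library. Igfbp6 alone was at least 2-fold lower, with 5 UMIs in QSC and 8 in ASC and a log2 ratio of -3.10 (-4.89 to -1.14). Its UMIs fell short of the 20 required for the background, which was 9.27% of 6246 genes at least 2-fold lower and 18.4% at least 2-fold higher in this class. Igf1, Igf1r and Igfbp7 had log2 ratios of 0.75, 0.47 and 0.13, each with an interval that spans 0.

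**Figure D2:**
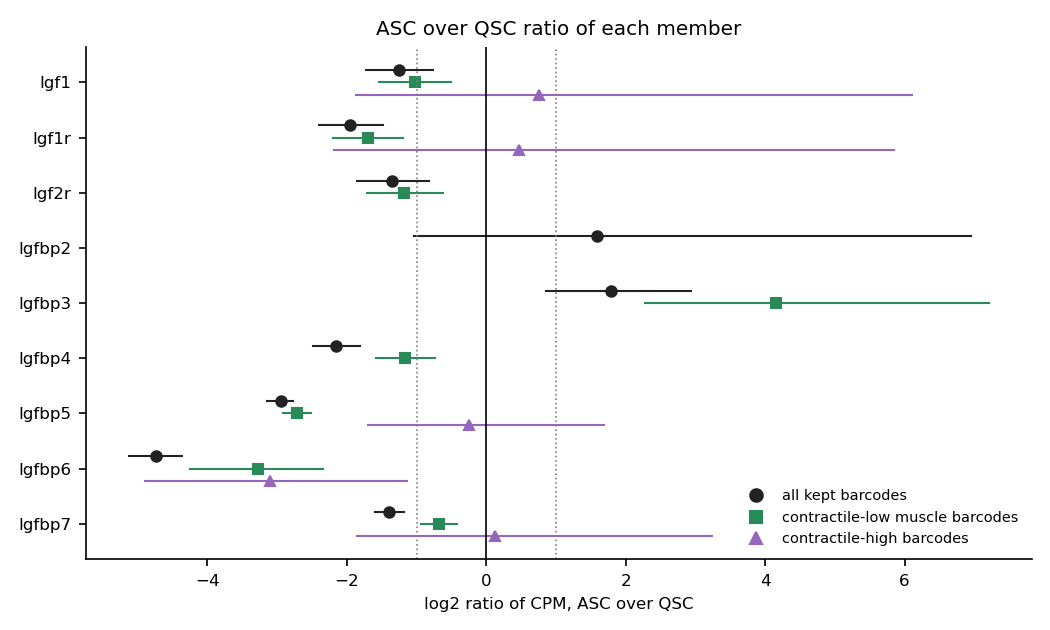
Log2 ratio of CPM, ASC over QSC, of each member in all kept (black), contractile-low muscle (green) and contractile-high (purple) barcodes. Lines are 95% counting intervals, dotted lines mark 2-fold, and ratios with 0 UMIs in a library are left out. The green and black points lie to the left for 7 members and to the right for Igfbp3, and the purple intervals are wide.

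The ASC contractile-low muscle barcodes were not uniform, so the levels were read cluster by cluster. Cluster 1 was led by Bgn, C1qtnf3, Iigp1, Tagln and Ifit1, held Cxcl10 among its leading genes, and stayed unnamed. Cluster 4, also unnamed, was led by Rrm2 and held Cdc20 and Birc5 among its leading genes, and its ASC barcodes had a cycling marker level of 1176 CPM over 10 genes. Cluster 9 was activated-like by its markers Cdkn1c, Mymk, Myog and Actc1. The median UMI count of the ASC barcodes was 5549 in cluster 1, 27897 in cluster 4 and 11888 in cluster 9, and no doublets were removed.

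Igfbp7, Igf1 and Igfbp4 had higher levels in cluster 1 than in cluster 4. Markers of other cell types also differed between the clusters. In ASC cluster 1, 4 and 9 the 10 fibroblast markers summed to 2535, 221 and 407 CPM (1, 1 and 6 of them at 0). The 8 mural markers summed to 1874, 253 and 3920 CPM (0, 3 and 5 at 0) and were highest in cluster 9. The part of either set in the levels was not tested. Igfbp7 stood at 288 CPM in cluster 1 (264 to 314), 12.6 in cluster 4 (8.63 to 17.8) and 4.96 in cluster 9 (1.02 to 14.5), against 186 in the QSC barcodes. By summed UMIs Igfbp7 was 22.8-fold higher in cluster 1 than in cluster 4. The mean of per-barcode CPM was 356 and 31.9, a smaller difference. The level in cluster 1 was above that of QSC, with a log2 ratio of 0.63 (0.37 to 0.90). A single barcode held 50 of the 521 Igfbp7 UMIs of cluster 1. Without it the level was 261 CPM (238 to 286), above the QSC interval of 158 to 217. Clusters 4 and 9 did not differ beyond counting error (log2 ratio -1.35, -3.70 to 0.33).

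Igf1 was likewise highest in cluster 1, at lower counts. Its level was 65.2 CPM in cluster 1 (54.0 to 78.1), 2.37 in cluster 4 (0.868 to 5.15) and 8.26 in cluster 9 (2.68 to 19.3), and the last pair did not differ beyond counting error (log2 ratio 1.80, -0.25 to 3.78). Cluster 1 and the QSC barcodes (50.9 CPM) did not differ beyond their counting intervals, with a log2 ratio of 0.36 (-0.16 to 0.90). Cluster 4 was 21.5-fold lower than QSC. Of the 161 ASC UMIs of Igf1, 73.3% came from cluster 1.

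Igfbp4 was close in cluster 1 and QSC, at 68.0 and 76.9 CPM (log2 ratio -0.18, -0.62 to 0.28), and lower in cluster 4 at 11.0 CPM. Cluster 9, at 46.3 CPM, did not differ from cluster 1 beyond counting error (log2 ratio -0.56, -1.20 to 0.05). One barcode held 8 of the 28 Igfbp4 UMIs of cluster 9, and without it the level was 34.4 CPM. The receptor gene Igf2r had a like order, with 37.6 CPM in cluster 1, 7.10 in cluster 4 and 36.4 in cluster 9. Its levels in clusters 1 and 9 did not differ beyond counting error from the 47.3 CPM of QSC, with log2 ratios of -0.33 (-0.92 to 0.27) and -0.38 (-1.20 to 0.40).

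Igf1r and Igfbp5 were lower than QSC in each of the 3 clusters. Igf1r stood at 61.5 CPM in QSC, 33.7 in cluster 1, 16.5 in cluster 9 and 8.67 in cluster 4, and the last pair did not differ beyond counting error (log2 ratio 0.93, -0.31 to 2.07). Igfbp5 stood at 523 CPM in QSC, 149 in cluster 1 (131 to 168), 48.9 in cluster 4 (40.7 to 58.3) and 11.6 in cluster 9 (4.65 to 23.8). No 2 of these 4 intervals overlapped. The log2 ratio to QSC was -1.81 (-2.04 to -1.59), -3.42 (-3.72 to -3.13) and -5.50 (-6.82 to -4.44). The lowest of these 4 levels lay in the cluster of Myog, the differentiation factor of myocytes.

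Within QSC the Igfbp5 level varied little by cluster. It was 548 CPM in cluster 0, 702 in cluster 1, 502 in cluster 2 and 538 in cluster 4, and the intervals overlapped (388 to 753, 489 to 977, 446 to 563 and 420 to 679). The 71 QSC and 102 ASC barcodes of cluster 4 therefore shared a cluster but stood at 538 and 48.9 CPM. Quiescent markers showed the same split, with 4834 CPM over 10 genes in the QSC barcodes of cluster 4 and 677 in the ASC barcodes.

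Igfbp3 ran in the other direction. Its level was 31.0 CPM in cluster 1 (23.4 to 40.2), 56.4 in cluster 4 (47.5 to 66.4) and 18.2 in cluster 9 (9.08 to 32.5), against 2.37 in QSC. All 3 ratios to QSC had intervals above 0, from a log2 ratio of 2.94 (0.75 to 6.16) in cluster 9 to 4.57 (2.69 to 7.63) in cluster 4. Cluster 4 exceeded cluster 1 by a log2 ratio of 0.86 (0.41 to 1.34). Without thinning 48 of the 102 ASC barcodes of cluster 4 held an Igfbp3 UMI, whereas at 1200 UMIs these were 4.90% (1.61 to 11.1) against 1.29% (0.267 to 3.73) in cluster 1. The order turned at 800 UMIs, with 1.96% and 2.94%, so no order of these clusters is read from the shares. Igfbp2 was seen in the same clusters, with 18 of its 23 UMIs in cluster 4 and 5 in cluster 1, but its levels of 7.10 and 2.76 CPM did not differ beyond counting error. Igfbp6 was near the floor in all of them, with 6, 8 and 0 UMIs.

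**Figure D3:**
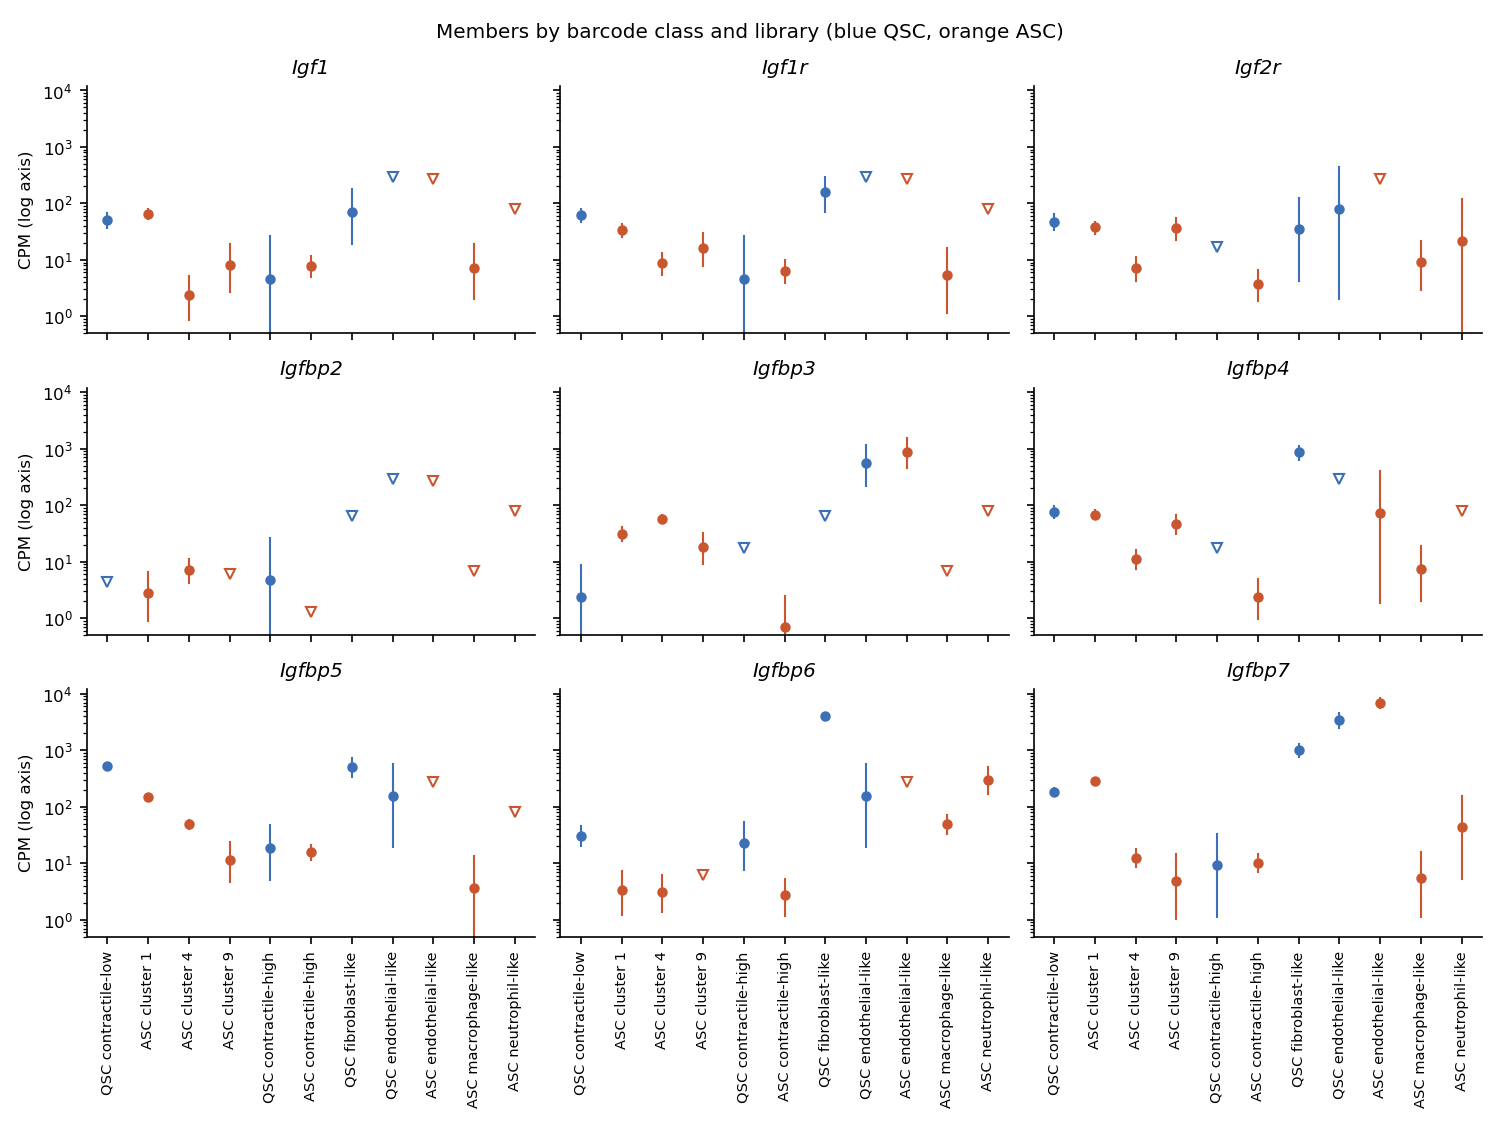
CPM (log axis) of each member in barcode classes of the QSC (blue) and ASC (orange) libraries, with cluster 1, 4 and 9 standing for ASC contractile-low muscle barcodes of those clusters. Lines are 95% Poisson intervals cut at the axis limit, and open triangles are upper bounds of levels of 0. Igfbp5 is at 523 CPM in QSC and 11.6 CPM in cluster 9, Igfbp3 is higher in all 3 clusters, and Igfbp6 and Igfbp7 peak in fibroblast-like and endothelial-like barcodes.

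Shares of cells with a UMI gave a further view in which depth was made equal by thinning every barcode to 1200 UMIs. An Igfbp5 UMI was present in 33.1% of QSC contractile-low muscle barcodes (121 of 366, 28.3 to 38.1) and in 10.8% of those of ASC (46 of 427, 8.00 to 14.1). Without thinning the shares were 47.3% and 35.7%. Macrophage-like barcodes, which should lack the gene, held it in 0 of 83 ASC barcodes, which allows a share of up to 3.61% by 3 counts and 4.35% by the exact limit, and their median depth was 6382 UMIs against 7932 in the ASC contractile-low muscle class. By cluster the thinned ASC share was 17.2% in cluster 1, 4.90% in cluster 4 and 0 of 46 in cluster 9, which allows up to 6.52% by 3 counts and 7.71% by the exact limit. Without thinning 15.2% of the cluster 9 barcodes held the gene. At this depth the interval of the cluster 4 share (1.61 to 11.1) takes in the limit set by the macrophage-like barcodes, whereas over all UMIs the level of 48.9 CPM lay above their 3.67 CPM (0.444 to 13.2).

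Igfbp7 UMIs were present in 21.6% of QSC barcodes (17.5 to 26.2) and 20.3% of ASC cluster 1 barcodes (15.3 to 26.0), shares whose intervals largely coincide. Before thinning they were 29.3% and 51.3%. Cluster 4 had 4.90% (1.61 to 11.1) against 1.20% in ASC macrophage-like barcodes. Igfbp4 was similar, with 8.74% in QSC (6.06 to 12.1) and 9.05% in cluster 1 (5.69 to 13.5). Igf1r was in 8.20% of QSC barcodes (5.60 to 11.5) and 3.75% of ASC ones (2.16 to 6.01), and Igf2r in 6.56% (4.25 to 9.60) and 1.87% (0.812 to 3.66). The ASC macrophage-like barcodes held Igf1r in 0 of 83, which allows up to 3.61% by 3 counts and 4.35% by the exact limit. The Igf1r share of ASC muscle barcodes lay under the exact limit. For Igf2r the macrophage-like share was 2.41% (0.293 to 8.43), an interval that takes in the ASC muscle share. Whether these barcodes express Igf2r was not tested, so their share sets no background for it. At this depth Igf1 shares of 5.46% and 3.51% had overlapping intervals. Igfbp3 was in 1 of 366 QSC barcodes (0.00692 to 1.51%) and in 9 of 427 ASC barcodes (0.968 to 3.96%), and these intervals overlap. The ASC share of 2.11% lay under the 4.35% that 0 of 83 macrophage-like barcodes allow by the exact limit. Over all UMIs the ASC level of 42.1 CPM lay above their upper bound of 6.77 CPM.

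In QSC contractile-low muscle barcodes 40.2% had no member detected at 1200 UMIs, 37.7% had 1 and 4.37% had 3 or more. In ASC these were 67.7%, 23.9% and 1.41%. Among the 20 QSC barcodes with Igf1 at this depth 13 also had Igfbp5, against 108 of the 346 without Igf1. Such joint detection was weak throughout (phi at most 0.178) and is no finding in counts this sparse.

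**Figure D4:**
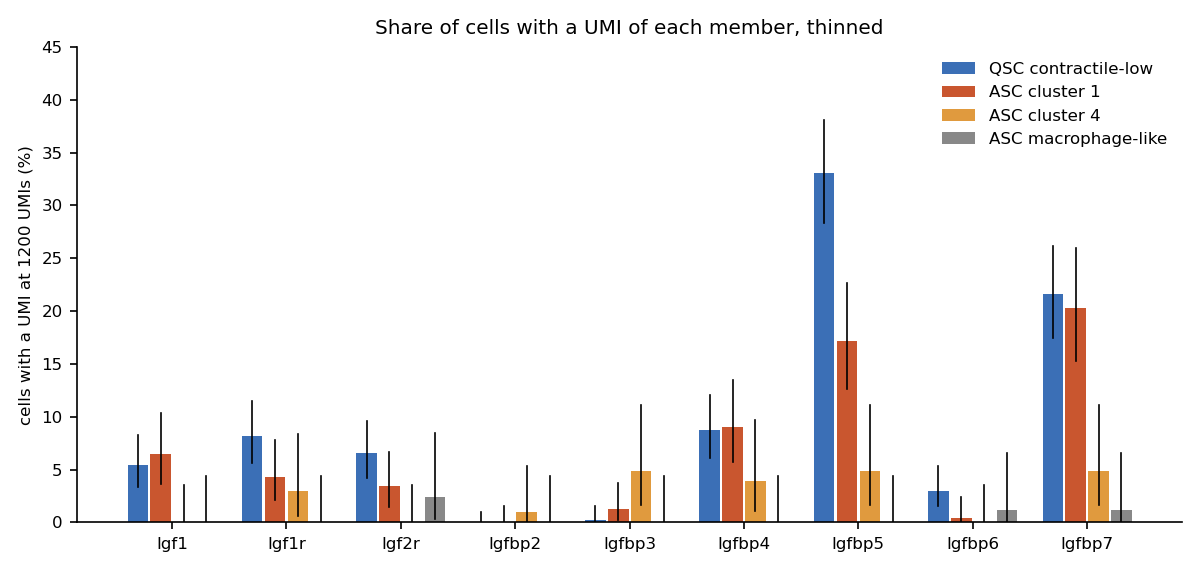
Percentage of barcodes with at least 1 UMI of each member after thinning to 1200 UMIs, for QSC contractile-low muscle barcodes (blue), ASC clusters 1 (red) and 4 (orange), and ASC macrophage-like barcodes (grey). Bars start at 0 and lines are exact 95% binomial intervals. Igfbp5 is at 33.1%, 17.2% and 4.90% in the first 3 of these, while Igfbp7 is at 21.6% and 20.3% in QSC and cluster 1.

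Barcodes of other cell types held much of some binding proteins. Cluster 11 was fibroblast-like and held 17 QSC barcodes and 1 ASC barcode. In those of QSC, Igfbp6 stood at 3980 CPM (3480 to 4531) and was detected in 16 of 17, and Igfbp4 stood at 855 CPM (633 to 1131). Igfbp7 was at 995 CPM there and Igfbp5 at 506 CPM, but 15 of the 29 Igfbp5 UMIs came from 1 barcode and the level without it was 266 CPM. These few barcodes held 87.0% of the QSC UMIs of Igfbp6 and 40.8% of those of Igfbp4. Fibroblast markers summed to 7511 CPM in QSC, with 0 of 10 genes at 0, and to 700 CPM in ASC, with 1 of 10 at 0. With all clusters of other cell types left out, the log2 ratio was -3.28 for Igfbp6 and -1.41 for Igfbp4.

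Cluster 12 was endothelial-like, with 11 QSC and 5 ASC barcodes. Igfbp7 stood at 3390 CPM in QSC (2453 to 4566) and 7021 CPM in ASC (5687 to 8573). Its level in muscle barcodes was far lower in both libraries. Of the 9 QSC UMIs of Igfbp3, 7 came from these 11 barcodes (552 CPM), 4 of them from 1 barcode, without which the level was 274 CPM. In ASC they held 12 UMIs (878 CPM), of which 11 were in 1 barcode, and the level without it was 84.0 CPM. Endothelial markers summed to 310 CPM in QSC and 44.6 CPM in ASC over 10 genes, none at 0. Outside the clusters of other cell types Igfbp3 had a log2 ratio of 3.86, and Igfbp7 one of -0.94.

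Macrophage-like barcodes (cluster 7, 16 in QSC and 85 in ASC) and neutrophil-like barcodes (cluster 10, 24 in ASC) held few members. Igf1 had 4 UMIs in the ASC macrophage-like barcodes (7.34 CPM, 2.00 to 18.8). In the QSC ones Igfbp4 had 6 UMIs in 5 of 16 barcodes (184 CPM, 67.4 to 400). Igfbp6 was counted with 27 UMIs in macrophage-like barcodes of ASC (49.5 CPM, 32.6 to 72.0) and 14 in neutrophil-like ones (304 CPM, 166 to 511). Both levels lay above the 3.18 CPM of the ASC contractile-low muscle class (1.85 to 5.09). They made up 36.0% and 18.7% of the 75 ASC UMIs of Igfbp6, so in neither library did muscle barcodes hold most of this gene. After thinning Igfbp6 was found in 4 of 21 neutrophil-like and 1 of 83 macrophage-like barcodes.

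The members did not share 1 pattern across clusters. Over 18 cluster-by-library units of 10 or more barcodes, the correlation of log2(CPM + 10) was 0.84 between Igf1r and Igfbp5, 0.82 between Igf1 and Igfbp4 and 0.80 between Igf1 and Igf1r. It was -0.34 between Igf1 and Igfbp3. The units share 2 libraries and a depth difference, so these values are descriptions. They also mix contractile clusters, other muscle clusters and other cell types, and the endothelial-like unit of QSC held only 12684 UMIs. The part of these splits in the correlations, here and below, was not tested. Among 6934 candidate genes outside the IGF lists, the most like Igfbp5 were Itih5 (0.969), Tgfbr3 (0.964) and Camk2n1 (0.963), and those most like Igf1r were Lama2 (0.974), Sgce (0.964) and Pkd2 (0.962). For Igfbp4 they were Utrn (0.945), Bmp1 (0.937) and Plxdc2 (0.930), and for Igf1 Colec12 (0.937), Pmp22 (0.937) and Ssbp2 (0.932). Igfbp3 was most like Topbp1 (0.913), Knop1 (0.903) and Rfwd3 (0.903). Igf2r had Vgll4 (0.892), Gm12940 (0.888) and Spry2 (0.875). Igfbp6 had Ly6a (0.869), Tmbim4 (0.852) and C3 (0.826), and Igfbp7 had Scd1 (0.935), Col4a1 (0.893) and Adamts10 (0.890).

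The wider axis was described by 42 genes in 6 lists, which include the members. The lists were also chosen with earlier results of these data known, and the part of that choice in the counts was not tested. Of these, 33 had 20 or more UMIs over all kept barcodes, 18 were at least 2-fold lower in ASC, 4 were at least 2-fold higher, and the median log2 ratio was -1.23, against 23.0% of genes lower, 16.0% higher and a median of -0.10 over all genes tested. Within the contractile-low muscle barcodes 17 of 32 were lower and 4 were higher, with a median of -1.06 with genes at 0 set to their bound, against 22.4% lower, 18.7% higher and a median of -0.06 over all genes tested. No ligand other than Igf1 exceeded 10 CPM in a whole library: Igf2 stood at 6.88 CPM in QSC and 5.96 in ASC, Ins2 had 1 UMI and Ins1 none. In cluster 9 of ASC, the cluster of Myog, Igf2 reached 36.4 CPM (22.8 to 55.0), from 22 of its 53 ASC UMIs. Insr, the insulin receptor, was the third receptor and had 14 UMIs in QSC and 15 in ASC, a log2 ratio of -2.84 (-3.99 to -1.68). The binding proteins Igfbp1, Igfbpl1 and Igfals were at 0 in both libraries.

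Of the genes that cut binding proteins, Htra1, a secreted serine protease, stood at 138 CPM in QSC and 11.9 in ASC (log2 ratio -3.53, -3.90 to -3.17), and the metalloprotease Adam12 was at 1.72 and 8.43 CPM (2.29, 0.39 to 5.36, from 2 and 75 UMIs). Pappa, the pregnancy-associated protease of IGFBP4, had 1 UMI in all.

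Of the 17 signal transducers, 8 were at least 2-fold lower and 1 at least 2-fold higher, against the 23.0% and 16.0% of all genes tested. Among them were genes of the FOXO factors, which AKT holds in the cytoplasm: Foxo3 had a log2 ratio of -2.94 (-3.38 to -2.49) and Foxo1 one of -2.65 (-3.01 to -2.29), while Foxo4, at 0.09, was within 2-fold. The adaptor Irs2 had a ratio of -2.51 (-3.06 to -1.96) and Pik3r1, the regulatory subunit of PI3 kinase, one of -2.49 (-2.82 to -2.15). The others were Shc1 (-1.36), Pik3ca (-1.28), Grb10 (-1.23) and Gsk3b (-1.21). Akt1, the kinase itself, was the 1 transducer called higher, from 31.0 to 62.5 CPM (1.01, 0.53 to 1.54), and its ratio was 1.51 in contractile-low muscle barcodes. Igf2bp3, which binds Igf2 mRNA, was lower at -2.06 (-2.73 to -1.37).

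**Figure D5:**
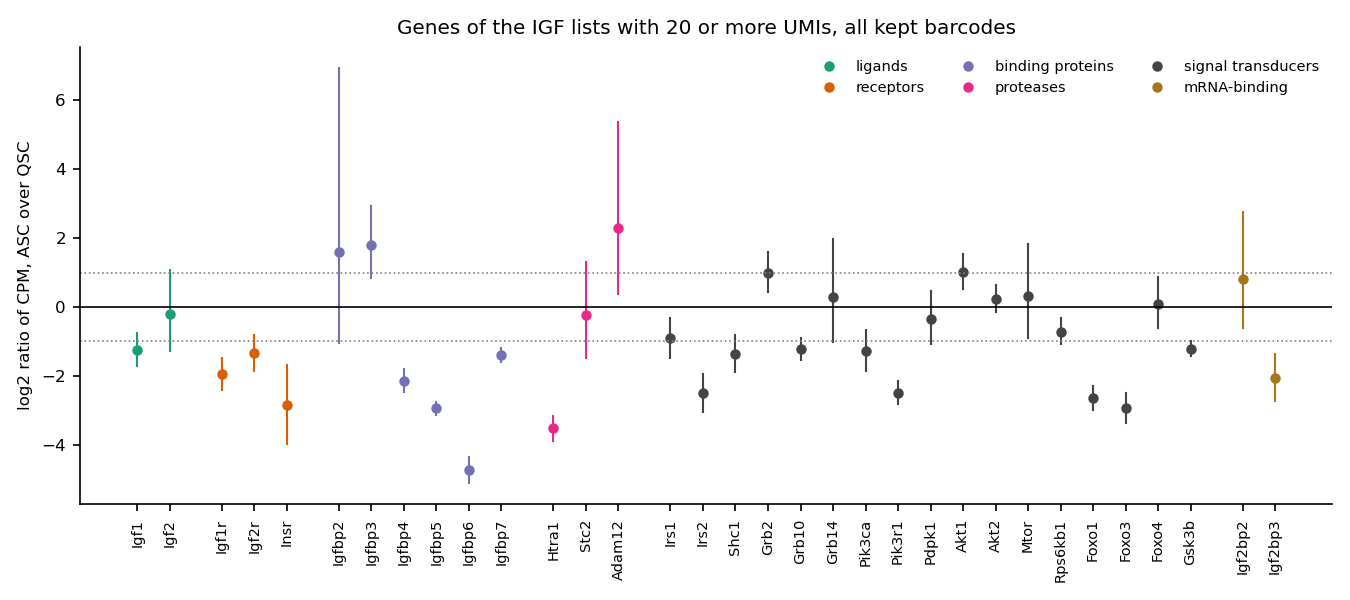
Log2 ratio of CPM, ASC over QSC, over all kept barcodes for the 33 genes of the IGF lists with 20 or more UMIs, coloured by role. Lines are 95% counting intervals and dotted lines mark 2-fold. All 3 receptors lie below the lower dotted line, Igfbp2, Igfbp3, Adam12 and Akt1 lie above the upper one, and the transducers lie on both sides of 0.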

How the data were processed

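Single-cell 3′ v2 libraries were analysed, 1 each for QSC and ASC. The authors deposited UMI counts per gene and barcode. The file headers carry Cell Ranger 6.0.2, whereas the submitters' processing notes name Cell Ranger 7.1.0, Seurat 4.1.0, R 4.1.2 and mm10. Each library pooled cells of several mice per the study, so differences between mice could not be seen. Strand handling is not given in the sources used here.

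Barcodes with 500 or more genes and at most 10% mitochondrial UMIs were kept. Summed UMIs were scaled to CPM with exact Poisson intervals, ratios have exact conditional binomial intervals, and shares after thinning to 1200 UMIs (random seed 7) have Clopper-Pearson intervals (Python 3.11.15, SciPy 1.17.1). No test between conditions was run. A gene was called from 2-fold on, a library at 0 being set to 3 counts. The ratio and its interval were tested on simulated data.

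Seurat 5.3.0 (R 4.3.3) clustered the merged barcodes on 10 principal components at resolution 0.6, without IGF genes. A cluster was contractile if at least 50% of its barcodes were contractile-high, and was otherwise named from 2 or more markers among its 10 leading genes and 3 or more higher than in the rest, a rule written after the data were seen. Doublets were not removed and no caller was run.

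The members, lists and markers were chosen with earlier results of these data known. Named genes were the members, genes of the IGF lists with 20 or more UMIs and a 2-fold difference, and the 3 genes most like each member with 100 or more UMIs. Of these lists, 1 gene is not reported here and was left out of the counts. Others, such as Igf2 and Foxo4, were named after their values were seen. Alternatives were other limits, scalings (TMM from edgeR 4.0.16), barcode classes, thinning depths and clusterings. Of 32285 features, 32235 had their identifier in GENCODE M21.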

Additional observations from a re-analysis of the deposited data

How the results depend on the processing

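The count of members at least 2-fold lower in ASC was 7 and stayed between 6 and 7 except in 2 settings. It was 0 at a mitochondrial limit of 1%, where 11 member UMIs were left in QSC, and 1 in contractile-high barcodes only. The count of members at least 2-fold higher, 2, was 1 at a limit of 5% and 1 in contractile-low muscle barcodes only. It was 0 at a limit of 1%, 0 in contractile-high barcodes only and 0 by the mean of per-barcode CPM, in which Igfbp3 had a log2 ratio of 0.31. Directions reversed in 6 of 90 recomputed ratios: Igf1 to 0.16 and Igfbp7 to 0.49 at the limit of 1%, Igf1 to 0.75, Igf1r to 0.47 and Igfbp7 to 0.13 in contractile-high barcodes, and Igfbp2 to -0.63 by the mean of per-barcode CPM. All of these rest on 1 or 2 UMIs in QSC. A further reversal, not among them, was Igfbp7 by the mean of per-barcode CPM within contractile-low muscle barcodes. It stood at 188 in QSC and 220 in ASC, from 157 and 619 UMIs. The cause of the other shifts was not tested.

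Over the alternatives the log2 ratio ranged from -3.03 to -0.25 for Igfbp5, from -5.21 to -0.96 for Igfbp6, from -2.35 to -0.91 for Igfbp4, from -1.69 to -1.04 for Igf2r and from 0.31 to 4.15 for Igfbp3. Shares of cells with a UMI moved in 42 of 54 recomputations with the thinning depth. Levels by class moved in 12 of 342. At resolution 0.3 no cluster was named endothelial-like or neutrophil-like, and the fibroblast-like barcode of ASC was lost under all 3 other clusterings, so these give no value. No paired analysis was possible because each group has 1 library. Leaving out a replicate was not possible for the same reason.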
